A study of Homo sapiens with 10 samples.

Results

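The clustered histone genes encode the core histones H2A, H2B, H3 and H4 and the linker histone H1, and their symbols begin with HIST1H, HIST2H, HIST3H or HIST4H. All gene symbols of that form were taken, which gave 70 of the 23426 genes in the files: 6 H1, 17 H2A, 20 H2B, 13 H3 and 14 H4 genes. The HIST1 cluster, on the short arm of chromosome 6, held 56 of them, HIST2 held 10, HIST3 held 3 and HIST4 held 1. RNA was sequenced from MDA-MB-468, a basal-like breast cancer cell line, and from ZR75-1, a luminal breast cancer cell line. Both lines were kept for 6 h in the solvent DMSO (2 samples per line) or in 1 μM PKC412 (3 samples per line), a staurosporine-derived kinase inhibitor also known as midostaurin. Each basal-like or luminal group therefore rested on 1 cell line, and the replicates measured the spread between samples of that line, which may be technical. The comparisons asked how the histone genes differed between the lines in each agent, how they responded to PKC412 in each line, and whether the responses differed.

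Pairs of H2A, H2B, H3 and H4 together wrap DNA into the nucleosome, and H1 binds the DNA between nucleosomes. Most clustered histone genes are copied into mRNA mainly in S phase, lack introns and yield mRNAs that end in a short stem-loop in place of a poly(A) tail. The stem-loop is bound by SLBP, the protein that guides 3′ end formation, export and translation of these mRNAs. Some clustered genes also give mRNAs that read past the stem-loop to a poly(A) site, a form known from cells that have left the cycle or differentiate.

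The stem-loop is shown because it is the sequence that sets these mRNAs apart from others. GENCODE transcripts were searched on the transcript strand for the 16-base histone stem-loop consensus, with the variable bases that the forms show, and a match was found in 30 of the 70 members. Over all GENCODE genes it was found in 48 of 57133, or 0.0840%, and 18 of those were not members. The 6 forms found, with the stem in capitals and the loop in lower case, differed in a few bases.
15 H2A, H2B and H3 genes, HIST2H2AA3 and HIST2H2BE among them: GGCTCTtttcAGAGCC
5 H4 genes, HIST1H4H and HIST1H4J among them: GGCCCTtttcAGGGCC
5 H2B and H3 genes, HIST1H2BC and HIST1H2BD among them: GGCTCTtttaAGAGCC
HIST1H4I and HIST2H4B: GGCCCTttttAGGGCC
HIST1H2AG and HIST2H2BC: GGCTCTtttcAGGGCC
HIST1H3E: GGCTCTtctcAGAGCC
Both forms found in the 7 H4 genes were found in no other histone type. In 21 of the 30 genes a GENCODE transcript ran more than 200 bases past the stem-loop, and in 9 it ended within 200 bases. Many of the other gene models end at the stop codon, so that no match there says only that the letters are not in the model.

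Promoter windows of RefSeq (GRCh38.p14, 250 bases before to 50 after the start of the gene) matched 62 of the 70 members. The CCAAT motif, searched on both strands, was in 53 of 62 member windows against 34.6% of all 35116 windows. It was in every H1, H2A, H2B and H3 window and in 3 of 12 H4 windows. The TATA motif TATAAA was in 66.1% of member windows against 11.5% of all. The octamer ATTTGCAT, the letters recognised by POU factors such as OCT1, was in 14 of 18 H2B and 11 of 15 H2A windows, in 1 of 11 H3 windows and in none of the 6 H1 and 12 H4 windows, against 1.77% of all windows. The H3 window with the octamer, that of HIST1H3D, has the same coordinates as the window of HIST1H2AD. Several H2A and H2B windows also overlap, such as those of HIST1H2AC and HIST1H2BC, so the windows counted are not all separate DNA. The windows of 3 genes with large differences between the lines are given, with these motifs in capitals on either strand. The first lies between HIST2H2AC and HIST2H2BE, which are transcribed away from each other, and 265 of its 300 bases are also in the window of HIST2H2BE.
HIST2H2AC (plus strand, chr1:149886668-149886967): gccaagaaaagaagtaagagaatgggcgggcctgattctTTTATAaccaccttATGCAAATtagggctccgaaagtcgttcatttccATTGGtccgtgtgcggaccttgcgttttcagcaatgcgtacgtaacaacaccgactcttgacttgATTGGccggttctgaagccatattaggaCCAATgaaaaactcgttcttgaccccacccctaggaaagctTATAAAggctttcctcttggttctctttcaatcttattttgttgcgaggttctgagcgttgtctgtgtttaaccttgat
HIST2H2AA3 (minus strand, chr1:149842701-149843000): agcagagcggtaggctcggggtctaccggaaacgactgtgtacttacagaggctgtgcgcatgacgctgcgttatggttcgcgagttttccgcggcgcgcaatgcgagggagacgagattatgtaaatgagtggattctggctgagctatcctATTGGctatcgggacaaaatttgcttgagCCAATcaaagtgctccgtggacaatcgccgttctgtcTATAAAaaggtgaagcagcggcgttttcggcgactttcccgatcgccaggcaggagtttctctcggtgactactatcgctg
HIST1H2BK (minus strand, chr6:27146809-27147108): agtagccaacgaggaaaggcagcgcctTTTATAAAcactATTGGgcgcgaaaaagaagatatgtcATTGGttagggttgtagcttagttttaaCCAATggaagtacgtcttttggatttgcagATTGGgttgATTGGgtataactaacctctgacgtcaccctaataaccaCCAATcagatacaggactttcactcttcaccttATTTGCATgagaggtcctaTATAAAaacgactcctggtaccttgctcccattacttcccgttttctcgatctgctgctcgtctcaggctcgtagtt

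The deposited values are FPKM, which count fragments per length of transcript and per number of mapped fragments in the sample, and they summed to 599228 to 835069 over all genes of a sample. The number of reads behind a value is unknown. The line labels fitted the marker genes: 6 basal markers (KRT5, KRT14, KRT17, EGFR, VIM and CAV1) summed to 2431 to 2674 FPKM in MDA-MB-468 and to 0.492 to 1.96 in ZR75-1. ESR1, the estrogen receptor gene that marks luminal cells, was at 2.63 to 8.28 FPKM in ZR75-1 and at 0.147 to 0.461 in MDA-MB-468. FPKM followed the GC content of genes to an extent that varied from sample to sample. A slope was fitted over the genes above 1 FPKM in every sample of a line that had a GENCODE GC content. It is given in log2 units per 10 points of GC and relative to the other samples of the same line. The MDA-MB-468 slopes were 0.37 and 0.06 in DMSO and -0.29, -0.02 and -0.12 in PKC412. The ZR75-1 slopes were 0.31 and -0.19 in DMSO and -0.11, 0.34 and -0.36 in PKC412. H3F3A, a gene that cells use throughout, was near 0 in most samples, so that a gene listed at 0 here may be a failed estimate.

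Summed over the 70 members, FPKM in ZR75-1 was 9.47 times that in MDA-MB-468. MDA-MB-468 had sums of 208 and 183 FPKM with DMSO and 187, 190.3 and 183 with PKC412. The ZR75-1 sums were 2294 and 1721 in DMSO and 1690.2, 2081 and 1224 in PKC412. The lowest ZR75-1 sample was well above the highest MDA-MB-468 sample, and the samples of ZR75-1 spread much more widely. The members made up 0.0254% to 0.0311% of all FPKM in MDA-MB-468 and 0.201% to 0.279% in ZR75-1. The mean sum in DMSO was 196 ± 17.2 FPKM in MDA-MB-468 and 2007 ± 405 in ZR75-1 (SD, n = 2), and in PKC412 it was 187 ± 3.51 and 1665 ± 429 (SD, n = 3). One gene, HIST2H2AA3, held 30.8% to 55.6% of the ZR75-1 sum and 9.86% to 16.6% of the MDA-MB-468 sum, and without it the ratio of the lines was 6.03.

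**Figure D1:**
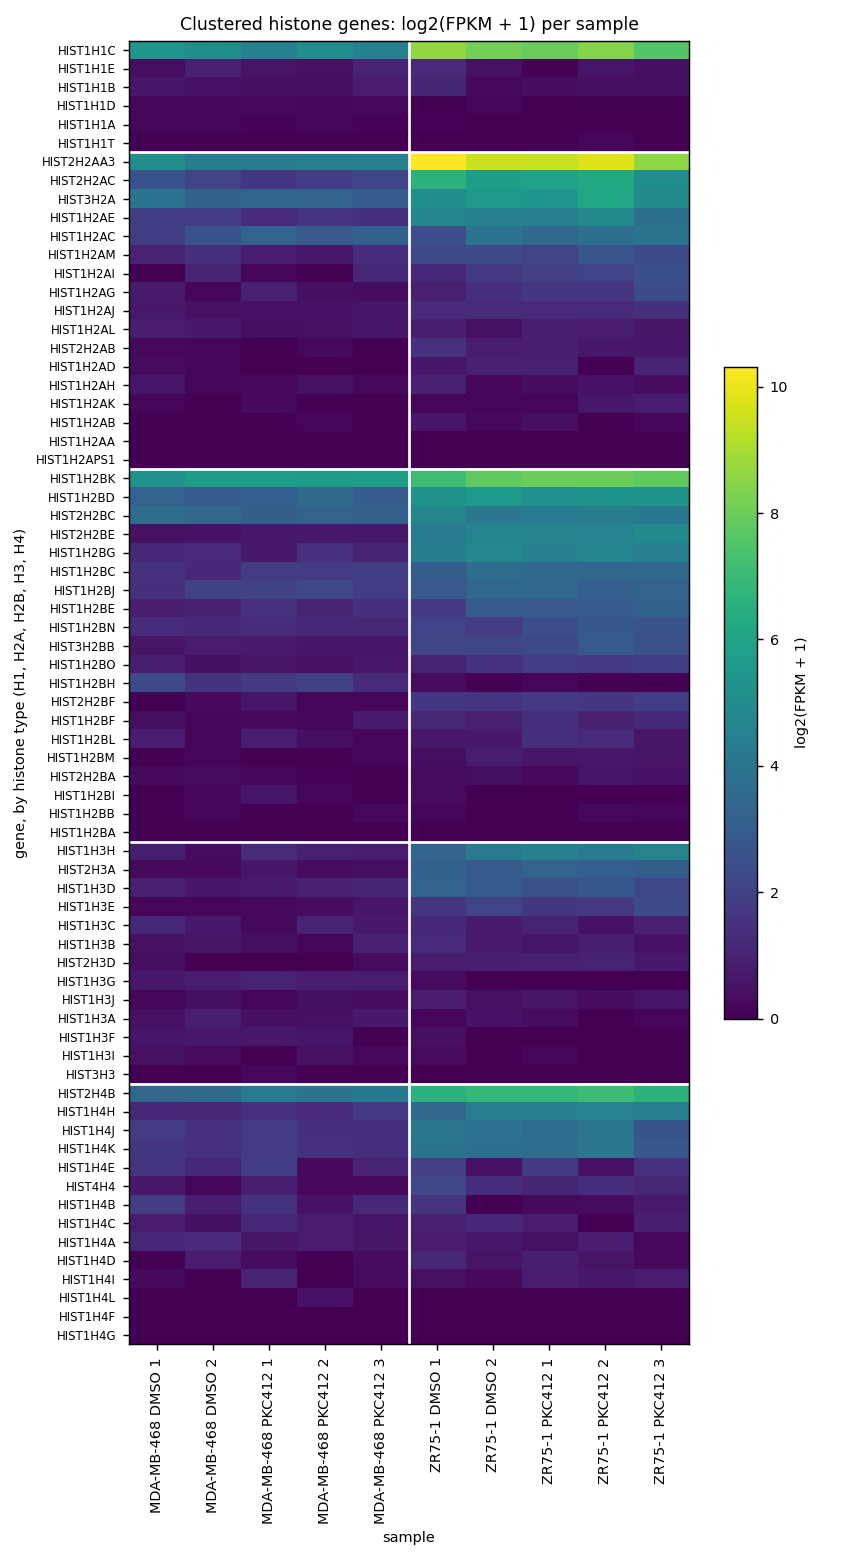
Heat map of log2(FPKM + 1) for all 70 clustered histone genes (rows, grouped by histone type and ordered by mean level) in the 10 samples (columns, MDA-MB-468 left of the white line and ZR75-1 right of it). A few members of each type are high in ZR75-1, HIST2H2AA3 reaching 1275 FPKM, and many rows are near 0 in both lines.

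Levels were unequal within every histone type. Between 20 and 24 members were above 1 FPKM in an MDA-MB-468 sample and between 32 and 39 in a ZR75-1 sample. The median member was at 0.392 to 0.537 FPKM in MDA-MB-468 and at 0.759 to 1.19 in ZR75-1. The 3 highest members of a sample held 49.8% to 57.5% of the sum in MDA-MB-468 and 64.5% to 78.8% in ZR75-1. In ZR75-1 the order by mean over the 5 samples was HIST2H2AA3 (795 ± 329 FPKM, SD, n = 5), HIST1H1C (291 ± 79.7), HIST1H2BK (216 ± 45.4), HIST2H4B (112 ± 15.7) and HIST2H2AC (63.7 ± 25.0), and the samples overlapped between HIST1H1C and HIST1H2BK, between HIST2H2AA3 and HIST1H1C, and between HIST2H4B and HIST2H2AC. In MDA-MB-468 it was HIST1H2BK (49.0 ± 5.90), HIST1H1C (30.5 ± 8.57), HIST2H2AA3 (23.1 ± 6.53) and HIST2H4B (13.8 ± 3.57), and the samples overlapped between HIST1H2BK and HIST1H1C and between HIST1H1C and HIST2H2AA3. The testis-type members HIST1H1T, HIST1H2AA, HIST1H2BA and HIST3H3 were listed at 0 in all or nearly all samples, and HIST1H2APS1, HIST1H4F and HIST1H4G were listed at 0 in all 10. HIST1H2BB, the other member too low to test, did not exceed 0.170 FPKM.

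By histone type, the ratio of ZR75-1 to MDA-MB-468 in summed FPKM was 19.9 for H2A, 9.16 for H1, 6.65 for H3, 6.54 for H4 and 4.50 for H2B. By cluster it was 20.2 for HIST2, 5.63 for HIST1, 4.82 for HIST3 and 4.66 for HIST4. The H2A genes held most of the ZR75-1 sum, 1449 and 861 FPKM in DMSO and 846, 1107 and 481 in PKC412, and the H2B genes held 267 and 373 in DMSO and 389.8, 403 and 375 in PKC412. The H2A and H2B sums therefore stood in different order over the ZR75-1 samples: the first DMSO sample was highest in H2A and lowest in H2B.

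**Figure D2:**
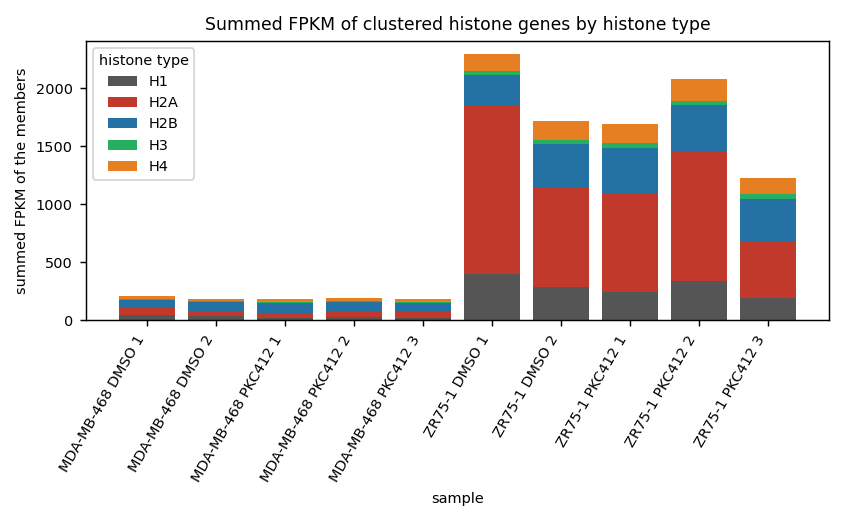
Summed FPKM of the members in each of the 10 samples, stacked by histone type. The 5 ZR75-1 bars reach 1224 to 2294 FPKM and the 5 MDA-MB-468 bars 183 to 208, and the H2A share varies most between ZR75-1 samples.

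The lines were compared gene by gene with limma on log2(FPKM + 1), over 16071 genes whose mean passed 0.1 FPKM somewhere among the 4 groups, 62 of them members. The other 8 members were too low to test. Differences are given as MDA-MB-468 minus ZR75-1 on that scale, which understates the change of low genes, and a gene was called at a Benjamini-Hochberg adjusted p under 0.05. In DMSO, 32 of the 62 members were lower in MDA-MB-468 and 2 were higher, against 15.9% of all genes lower and 26.5% higher (42.4% in all). In PKC412, whose samples are separate from the DMSO samples, 37 were lower and 4 were higher, against 21.6% and 37% of all genes (58.6% in all). All 32 members called lower in DMSO were among the 37, and the 5 called lower only in PKC412 were HIST1H2AD, HIST1H2AG, HIST1H2AI, HIST1H2AK and HIST2H2BA. Of the 50-base windows of their transcripts, HIST1H2AD shares 98.0%, HIST1H2AI 62.3%, HIST1H2AK 100% and HIST2H2BA 73.4% with other genes. Over all members, 14 share more than 50%, HIST1H2AJ, HIST1H2AM and HIST2H3D among them, and their levels are uncertain. The share of members lower in MDA-MB-468 was 51.6% and 59.7%, well above that of all genes in each agent. The median difference of the tested members was -0.68 in DMSO and -0.75 in PKC412, and that of all genes was 0.11 and 0.19. With both agents pooled, so that each line had 5 samples, every ZR75-1 sample was above every MDA-MB-468 sample for 33 of the 62 members (53.2%, against 18.1% of all genes), and the reverse held for 2 (3.23%, against 29.7%). HIST1H2BM, called in both agents, and HIST1H2AK passed the limit of 0.1 FPKM only through ZR75-1, the line where they were higher. Their calls, and the place of HIST1H2BM among the 33, are no support for a difference. By cluster, 9 of 10 HIST2 members were lower in DMSO and 10 of 10 in PKC412, against 20 and 24 of 49 HIST1 members, 2 of 2 for HIST3 and 1 of 1 for HIST4 in both agents. In bulk samples, fewer cells that express a gene and less RNA per cell cannot be told apart.

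**Figure D3:**
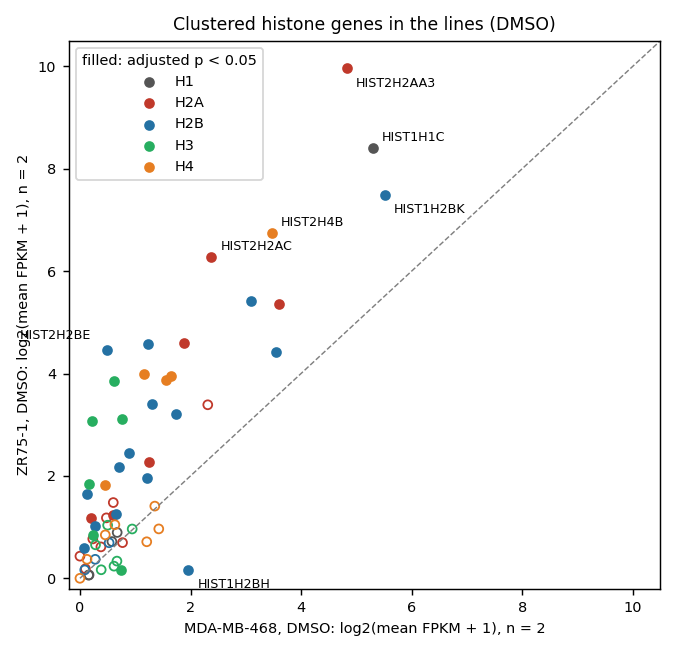
Mean level of each tested clustered histone gene in DMSO, as log2(mean FPKM + 1), in MDA-MB-468 (x axis) and ZR75-1 (y axis), n = 2 each, coloured by histone type; filled points had an adjusted p under 0.05 and the dashed line marks equal levels. The 32 filled points above the line include every member with a ZR75-1 mean above 10 FPKM, and HIST1H2BH stands below it.

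Among the H2A genes, 7 of 15 tested were lower in MDA-MB-468 in DMSO and 11 in PKC412, and none was higher. HIST2H2AA3, which encodes a common replication-dependent H2A, had the largest difference of any member. MDA-MB-468 cells had 34.6 and 20.0 FPKM of it with DMSO and 18.4, 21.1 and 21.3 with PKC412. The ZR75-1 samples were at 1275 and 713 in DMSO and at 702, 907 and 377 in PKC412. The lines did not overlap, and the difference was -5.13 (SE 0.44, limma adjusted p = 3.98e-05) in DMSO and -4.87 (SE 0.36, adjusted p = 1.08e-05) in PKC412. All of its transcript's 50-base windows are also in HIST2H2AA4, a copy with no row of its own here, so the value may hold reads of both. HIST2H2AC was at 5.03 and 3.35 FPKM in DMSO and 2.10, 2.67 and 3.47 in PKC412 in MDA-MB-468. Its ZR75-1 values were 98.7 and 54.4 in DMSO and 58.4, 75.2 and 31.5 in PKC412, a difference of -3.86 (SE 0.43, adjusted p = 0.000172) in DMSO. HIST1H2AE differed by -2.72 in DMSO and -2.90 in PKC412, and HIST3H2A by -1.80 and -2.26. The HIST3H2A call in DMSO was lost without the second MDA-MB-468 DMSO sample (-1.44, adjusted p = 0.0582). HIST1H2AC, at 2.82 to 8.64 FPKM in MDA-MB-468 and 4.55 to 14.6 in ZR75-1, was called in neither agent and its samples overlapped. HIST1H2AB, HIST1H2AH and HIST1H2AL, all below 1 FPKM, were not called in either agent.

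The H2B genes had the highest share of calls, 14 of 18 lower in MDA-MB-468 in DMSO and 15 in PKC412. HIST2H2BE, the neighbour of HIST2H2AC across the shared promoter window above, was at 0.392 and 0.401 FPKM in DMSO and 0.640, 0.609 and 0.583 in PKC412 in MDA-MB-468. In ZR75-1 the values were 17.6 and 24.3 in DMSO and 23.4, 23.1 and 29.5 in PKC412. The ratio of the means in DMSO was 52.8, the highest among the members with a ZR75-1 mean above 5 FPKM, and the difference was -3.96 (SE 0.19, adjusted p = 2.06e-06). HIST1H2BG was at 1.28 and 1.41 FPKM in DMSO in MDA-MB-468 and at 20.0 and 26.0 in ZR75-1, a difference of -3.35 (SE 0.25, adjusted p = 1.83e-05), and it differed by -3.48 in PKC412. HIST1H2BK, the highest H2B gene in both lines, was at 38.5 and 50.8 FPKM in DMSO and 52.5, 50.4 and 52.5 in PKC412 in MDA-MB-468. ZR75-1 had 138 and 219 in DMSO and 246, 252 and 223 in PKC412, and it differed by -1.95 (SE 0.21, adjusted p = 0.000156) in DMSO. HIST1H2BK shares 61.4% of its 50-base windows with H2BFS, so its level is uncertain. HIST1H2BD differed by -2.32 in DMSO and -2.06 in PKC412. HIST2H2BC, a pseudogene of the HIST2 cluster, differed by only -0.84 in DMSO (adjusted p = 0.0135), and that call was lost without the second MDA-MB-468 DMSO sample (-0.69, adjusted p = 0.0950) and without the first ZR75-1 DMSO sample (-0.53, adjusted p = 0.0677). Adjusting FPKM for GC content and length also ended it in both agents (-0.62, adjusted p = 0.426, and -1.24, adjusted p = 0.0599).

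The H3 genes were low in MDA-MB-468, where they summed to 4.79 to 6.25 FPKM, and 5 of 12 tested were lower there than in ZR75-1 in each agent. HIST1H3H was at 0.845 and 0.221 FPKM in DMSO and 1.37, 0.881 and 0.734 in PKC412 in MDA-MB-468. ZR75-1 values were 9.36 and 17.7 in DMSO and 21.7, 17.9 and 23.8 in PKC412, a difference of -3.21 (SE 0.33, adjusted p = 0.000103) in DMSO and -3.48 in PKC412. HIST2H3A was at 0.155 and 0.184 FPKM in DMSO in MDA-MB-468 and at 8.28 and 6.58 in ZR75-1, and differed by -2.84 (SE 0.18, adjusted p = 8.6e-06). It shares all of its 50-base windows with HIST2H3C. HIST1H3D differed by -2.34 in DMSO and -1.62 in PKC412, HIST1H3E by -1.64 and -1.52, and HIST2H3D by -0.62 and -0.77. The uncalled H3 genes, HIST1H3A, HIST1H3B, HIST1H3C, HIST1H3F, HIST1H3I and HIST1H3J, were between 0 and 1.44 FPKM in every sample. HIST1H3D shares all its windows with an overlapping gene model, and its value is uncertain.

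Of the tested H4 genes, most of which encode the same protein, 5 of 12 were lower in MDA-MB-468 in each agent. HIST2H4B, which shares 95.1% of its 50-base windows with HIST2H4A, was at 9.54 and 10.6 FPKM in DMSO and 17.3, 14.8 and 16.9 in PKC412 in MDA-MB-468. Those of ZR75-1 were 96.3 and 116 in DMSO and 115, 135 and 98.4 in PKC412. It differed by -3.27 (SE 0.17, adjusted p = 2.73e-06) in DMSO and by -2.75 (SE 0.14, adjusted p = 1.34e-06) in PKC412. HIST1H4H differed by -2.75 and -3.03. HIST1H4J, which shares 81.2% of its 50-base windows with HIST1H4K, and HIST1H4K, which shares all of them with HIST1H4J, differed by -2.30 and -2.32 in DMSO and by -1.91 and -1.96 in PKC412. HIST4H4, the only member of its cluster, differed by -1.32 (adjusted p = 0.0134) in DMSO and -0.73 (adjusted p = 0.0489) in PKC412. The other tested H4 genes, HIST1H4A, HIST1H4B, HIST1H4C, HIST1H4D, HIST1H4E, HIST1H4I and HIST1H4L, were below 3 FPKM in every sample and none was called.

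Of the 5 tested H1 genes, which encode linker histones, 1 was lower in MDA-MB-468 and it carried nearly all of the H1 sum. HIST1H1C, the gene of histone H1.2, was at 41.7 and 34.7 FPKM in DMSO and 22.0, 32.4 and 21.9 in PKC412 in MDA-MB-468. The ZR75-1 samples had 394 and 283 in DMSO and 246, 341 and 189.8 in PKC412, a difference of -3.10 (SE 0.31, adjusted p = 8.68e-05) in DMSO and -3.28 (SE 0.25, adjusted p = 1.27e-05) in PKC412. HIST1H1B and HIST1H1E, the genes of H1.5 and H1.4, were at 0.0536 to 1.33 FPKM over all samples and were not called (-0.08 and -0.20 in DMSO). Both changed sign with 1 sample left out: without the first ZR75-1 DMSO sample they differed by 0.36 (adjusted p = 0.167) and 0.18 (adjusted p = 0.720), and HIST1H1E differed by 0.06 (adjusted p = 0.929) without the first MDA-MB-468 DMSO sample.

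Few members were higher in MDA-MB-468. HIST1H2BH, an H2B gene, was at 3.94 and 1.84 FPKM in DMSO and 2.27, 2.94 and 1.33 in PKC412 in MDA-MB-468. It was at 0.252 in the first ZR75-1 DMSO sample and 0.139 in the first ZR75-1 PKC412 sample and was listed at 0 in the other 3. It differed by 1.74 (SE 0.31, adjusted p = 0.00208) in DMSO and 1.57 (SE 0.25, adjusted p = 0.000849) in PKC412. HIST1H3G was at 0.589 and 0.756 FPKM in DMSO and 1.05, 0.742 and 0.724 in PKC412 in MDA-MB-468, was at 0.230 in the first ZR75-1 DMSO sample and was listed at 0 in the other 4 ZR75-1 samples. Its difference in DMSO was 0.59 (SE 0.12, adjusted p = 0.00435). HIST1H1D and HIST1H1A were also called in PKC412, where they were listed at 0 in the 3 ZR75-1 samples, at levels of 0.0623 to 0.173 FPKM in MDA-MB-468. Both passed the limit of 0.1 FPKM only through MDA-MB-468, the line where they were higher, so these calls are no support for a difference. The HIST1H1A call (adjusted p = 0.0436) was lost when any 1 of the 6 PKC412 samples or the first MDA-MB-468 DMSO sample was left out, with adjusted p of 0.0505 to 0.110. It was also lost with the replicate number as a block (adjusted p = 0.0904), with median-ratio rescaling (0.119) and with eBayes without trend (0.182).

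A list of 8 members known to give poly(A) mRNAs (HIST1H1C, HIST1H2AC, HIST1H2BC, HIST1H2BD, HIST1H2BJ, HIST1H2BK, HIST1H4H and HIST2H2BE) held 7 called lower in MDA-MB-468 in each agent. Its median difference was -2.19 in DMSO and -2.12 in PKC412, against -0.52 and -0.62 for the other 54 tested members. Many of those 54 were at low FPKM, where the log2(FPKM + 1) scale understates differences. The list summed to 96.6 to 108 FPKM in MDA-MB-468 and to 536 to 708 in ZR75-1. Its sum in ZR75-1 was 6.13 times that in MDA-MB-468. This was close to the ratio of all members without HIST2H2AA3, a sum that itself holds the 8 listed genes. HIST2H2AA3, HIST2H2AC, HIST2H4B and HIST1H3H, which are not on the list, differed as widely. GENCODE transcripts of HIST2H4B and HIST1H3H ran 1314 and 769 bases past the stem-loop, and that of HIST2H2AA3 ran 35 bases. All 3 hold the poly(A) signal letters AATAAA past it. Genes off the list may therefore also give poly(A) mRNAs, which was not tested.

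Most genes of DNA replication stood the other way between the lines. Of 15 S-phase genes (DNA replication and nucleotide synthesis), 12 were higher in MDA-MB-468 in DMSO and 14 in PKC412, and none was lower, beside 26.5% and 37% of all genes higher and 15.9% and 21.6% lower. PCNA, the sliding clamp of DNA replication, was at 296 to 542 FPKM in MDA-MB-468 and at 35.2 to 75.3 in ZR75-1, and MCM3, of the replicative helicase, was at 101 to 110.5 and 13.7 to 19.0. Of 11 histone chaperone genes, 7 were higher in MDA-MB-468 in each agent and none was lower, among them CHAF1A, CHAF1B and ASF1B, which deliver H3 and H4 to new DNA. Of 21 genes for transcription and 3′ end processing of histone mRNA, 9 were higher in MDA-MB-468 in DMSO and none lower, and in PKC412 14 were higher and 1, LSM10, was lower. SLBP was at 26.2 and 42.0 FPKM in DMSO in MDA-MB-468 and at 9.28 and 25.7 in ZR75-1, a difference of 1.05 that was not called (adjusted p = 0.0866), and it was called in PKC412 (1.29, adjusted p = 0.0138). Of 11 replication-independent histone genes, whose mRNAs carry poly(A) tails, 4 (CENPA, H2AFV, H2AFZ and H3F3B) were higher in MDA-MB-468 and 3 (H1F0, H1FX and H2AFJ) were lower, in each agent, shares near those of all genes. In summed FPKM the clustered histone genes therefore did not follow the S-phase genes. The S-phase sum in ZR75-1 was 0.300 times that in MDA-MB-468. The sum of the clustered genes was 9.47 times, and 6.03 times without HIST2H2AA3. This did not hold for every member: in DMSO 11 of the 62 tested had a higher estimate in MDA-MB-468 and 50 a lower one.

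Some RNAs outside the histone family that carry no poly(A) tail varied widely within ZR75-1. RMRP, the RNA of RNase MRP, was at 90.3 and 11.1 FPKM in DMSO and 29.1, 22.3 and 1.30 in PKC412 in ZR75-1, and at 5.33 to 12.5 in MDA-MB-468. RPPH1, the RNA of RNase P, was at 131 and 13.6 in DMSO and 35.3, 24.9 and 4.71 in PKC412 in ZR75-1, and at 11.6 to 16.7 in MDA-MB-468. RNU6ATAC was steadier in ZR75-1, at 4.39 to 5.62 FPKM, and was at 9.59 to 25.9 in MDA-MB-468. It was called higher in MDA-MB-468 in both agents (limma adjusted p = 0.00306 in DMSO and 2.46e-05 in PKC412). The 8 RNAs without a poly(A) tail that had a row summed to 10.4 to 255 FPKM in ZR75-1 and 54.7 to 70.8 in MDA-MB-468. Their calls in DMSO, 2 of 8 higher and 1 lower in MDA-MB-468, were near the shares of all genes (26.5% and 15.9%). The lower one, TERC, was listed at 0 in both MDA-MB-468 samples and passed the limit of 0.1 FPKM only through ZR75-1 in DMSO, so its call is no support for a difference. The sum of the 8 RNAs overlapped between the lines, where the histone sum did not. The sources used here do not state whether the TruSeq libraries were made from RNA selected for poly(A). Every histone FPKM here depends on how RNAs without a poly(A) tail were recovered, and the part of that recovery in the difference between the lines was not tested.

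After 6 h of PKC412 no member was called in either line. In MDA-MB-468 0 of 62 members were called by limma, against 0.691% of all genes higher and 0.566% lower (1.26% in all), and 3 members (4.84%) had an unadjusted p under 0.05, against 16.4% of all genes. In ZR75-1 0 of 62 were called, against 0.747% of all genes higher and 0.199% lower (0.946% in all), and 5 members (8.06%) had an unadjusted p under 0.05, against 11.2% of all genes. With so low a share of all genes called, 0 calls among 62 members is no sign that the members respond less than other genes. The members' median response was near 0 in both lines (-0.02 for MDA-MB-468, -0.05 for ZR75-1), beside 0.11 and 0.07 for all genes, and it changed sign to 0.04 and 0.07 when every sample was scaled to the same FPKM sum. With FPKM adjusted for GC content and length the members' median was 0.085 and 0.021. The GC slope was positive in both MDA-MB-468 DMSO samples and negative in every MDA-MB-468 PKC412 sample, so slope and agent ran together there. On the log2(FPKM + 1) scale, which keeps genes below 1 FPKM from large values, no member's estimate reached a change of 1, and the 95% interval lay within 1 log2 unit of 0 for 50 members in MDA-MB-468 and 42 in ZR75-1. For the others the interval reached beyond 1 log2 unit. With a pseudocount of 0.1, 2 members in MDA-MB-468 and 7 in ZR75-1 were estimated beyond 1 log2 unit, and with 0.01 they were 14 and 17, none of them called.

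**Figure D4:**
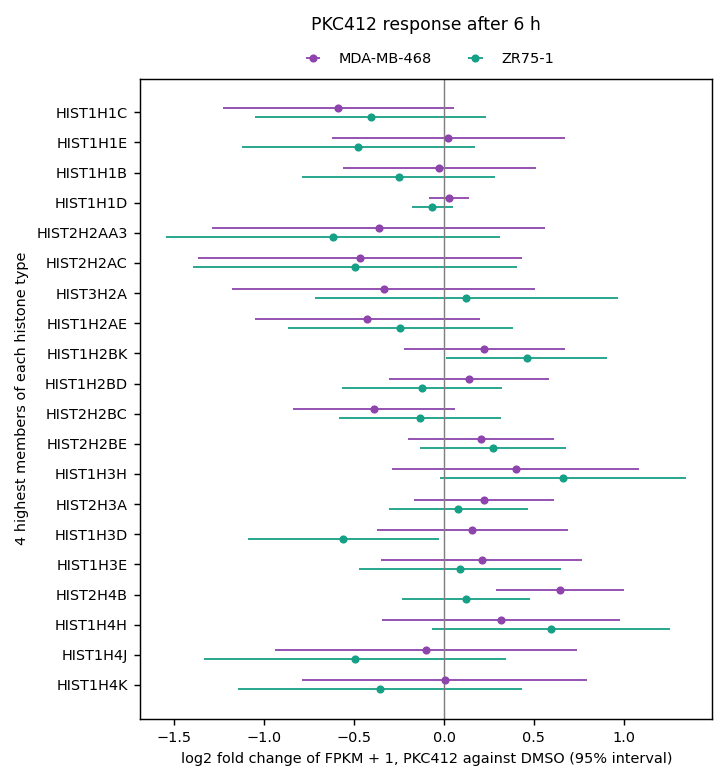
Response to PKC412, PKC412 minus DMSO on the log2(FPKM + 1) scale, of the 4 members with the highest mean level in each histone type (MDA-MB-468 in purple, ZR75-1 in green); bars are 95% intervals of the limma fit. Most intervals span 0, and HIST2H4B in MDA-MB-468 (0.64) is the estimate farthest from 0 relative to its error.

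The member with the smallest p in MDA-MB-468 was HIST2H4B, at 9.54 and 10.6 FPKM in DMSO and 17.3, 14.8 and 16.9 in PKC412. All 3 treated samples were above both controls, and the response was 0.64 (SE 0.15, limma adjusted p = 0.115). It passed the threshold in 1 alternative only, with FPKM adjusted for GC content and length, where it was 0.72 (SE 0.14, adjusted p = 0.0365); that alternative was chosen after seeing the data. In ZR75-1, HIST2H4B was at 96.3 and 116 in DMSO and 115, 135 and 98.4 in PKC412, and its response was 0.12 (95% interval -0.23 to 0.48). HIST1H4A was at 1.28 and 1.34 FPKM in DMSO and 0.469, 0.738 and 0.451 in PKC412 in MDA-MB-468, a response of -0.58 (SE 0.18, adjusted p = 0.203), which was -1.14 (adjusted p = 0.373) with a pseudocount of 0.1 and -1.27 (adjusted p = 0.421) with 0.01. HIST1H2BC was at 1.74 and 1.23 in DMSO and 2.52, 2.44 and 2.81 in PKC412 there, a response of 0.54 (SE 0.21, adjusted p = 0.277).

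In ZR75-1 the smallest p belonged to HIST1H2BN, at 3.21 and 2.54 FPKM in DMSO and 4.52, 6.26 and 5.15 in PKC412. The treated samples were all above the controls, and the response was 0.70 (SE 0.17, adjusted p = 0.169). Adjusted for GC content and length, HIST1H2BN in ZR75-1 was at 5.24 and 1.94 in DMSO and 3.80, 10.2 and 3.01 in PKC412, so that treated samples and controls overlapped. HIST1H2BO was at 1.02 and 1.78 in DMSO and 2.70, 2.32 and 2.81 in PKC412, a response of 0.61 (SE 0.19, adjusted p = 0.284). HIST1H3D was at 8.78 and 6.54 in DMSO and 4.91, 6.18 and 3.65 in PKC412, a response of -0.56 (SE 0.23, adjusted p = 0.426). HIST2H2AA3, the highest member, had a response of -0.36 in MDA-MB-468 (95% interval -1.29 to 0.56) and -0.62 in ZR75-1 (-1.54 to 0.31), so that its wide spread left the direction undetermined. HIST1H1C had -0.59 (-1.23 to 0.06) in MDA-MB-468 and -0.41 (-1.05 to 0.24) in ZR75-1. Adjusted for GC content and length, HIST1H1C in MDA-MB-468 was at 31.8 and 30.4 FPKM in DMSO and 30.0, 31.0 and 25.1 in PKC412. The treated samples did not overlap the controls for 15 members in MDA-MB-468, 8 above (12.9%, against 39.6% of all genes) and 7 below (11.3%, against 16.3%), and for 11 in ZR75-1, 9 above (14.5%, against 14.8%) and 2 below (3.23%, against 6.98%).

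The difference of the responses, MDA-MB-468 minus ZR75-1, was called for 0 of 62 members by limma, against 0.0684% of all genes higher and 0.199% lower (0.268% in all), and 3 members had an unadjusted p under 0.05 (4.84%, against 7.05% of all genes). They were HIST1H2BN (-0.72, SE 0.24, adjusted p = 0.530), HIST1H2BO (-0.67, SE 0.27, adjusted p = 0.660) and HIST2H4B (0.52, SE 0.22, adjusted p = 0.701). Differences in the response of the remaining members lay between -0.82 and 0.72, with a median 95% half-width of 0.72 over the members. No gene on the lists of S-phase, chaperone, histone mRNA or replication-independent histone genes was called for PKC412 in either line.

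The ZR75-1 samples differed among themselves in which histone genes were high, within an agent as well as between agents. For the 21 members with a ZR75-1 mean above 5 FPKM, the first DMSO sample was set against the second and the second PKC412 sample against the third, the pair with the highest and the lowest GC slope in PKC412. In 9 members both ratios were above 1, among them HIST2H2AA3 (1.79 and 2.41), HIST2H2AC, HIST1H1C (1.39 and 1.80) and HIST1H4K (1.19 and 2.70). In 6 members both were below 1: HIST1H3H (0.530 and 0.752), HIST2H2BE (0.723 and 0.784), HIST1H2AC (0.316 and 0.863), HIST1H2BE, HIST1H2BJ and HIST1H2BC. In FPKM as deposited, HIST2H2AC and HIST2H2BE, transcribed from either side of 1 promoter window, thus moved in opposite directions between replicates of the same agent. This did not hold after the adjustment for GC content and length given below. The median GC content of the GENCODE transcripts was 61.75% for the 9 and 47.75% for the 6. HIST2H2BC, at 41.0% GC, was an exception among the 9, with ratios of 1.58 and 1.14, and HIST1H2BK, at 61.2% GC, had ratios of 0.632 and 1.13. Some of these gene models hold the coding part alone, so their GC content may not be that of the mRNA.

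**Figure D5:**
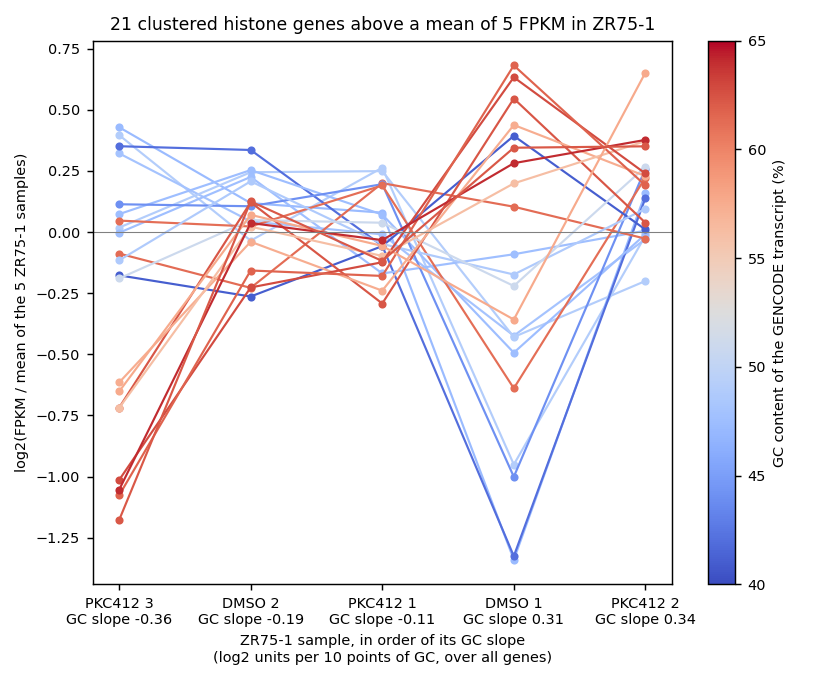
FPKM of the 21 members with a mean above 5 FPKM in ZR75-1, each as log2 of its ratio to the mean of the 5 ZR75-1 samples (y axis), in samples ordered by GC slope (x axis); colour gives the GC content of the transcript. Members of high GC content (red) are mostly low in the third PKC412 sample, whose slope is -0.36 (HIST1H2BK, at 223 FPKM, is not), and mostly high in the first DMSO and second PKC412 samples, and members of low GC content (blue) are mostly lowest in the first DMSO sample.

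With FPKM adjusted within each line for GC content and length, HIST2H2AA3 was at 883 and 755 in DMSO and 708, 744 and 620.5 in PKC412 in ZR75-1, a narrower range than as deposited. In MDA-MB-468 the adjusted values were 23.3 and 17.4 in DMSO and 27.1, 20.3 and 25.6 in PKC412. HIST2H2AC was at 63.5 and 58.5 in DMSO and 58.6, 61.2 and 55.9 in PKC412 in ZR75-1 after the adjustment. HIST2H2BE was at 22.6 and 21.7 in DMSO and 21.7, 26.7 and 23.9 in PKC412 there. After adjustment HIST2H2AC and HIST2H2BE thus moved in the same direction between the replicates compared above. For some members the adjusted range was wider than as deposited. HIST1H2BK was at 92.0 and 234 in DMSO and 246, 206 and 382 in PKC412 in ZR75-1 after adjustment. HIST2H2BC was at 40.1 and 12.7 in DMSO and 15.8, 30.4 and 9.55 in PKC412 there. The adjustment worked within each line, so a GC effect common to all samples of a line was not tested.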

How the data were processed

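RNA of 10 samples in 4 groups was analysed, grouped by the cell line, agent and replicate number of the labels. The authors deposited FPKM per gene symbol, 1 table per sample, computed with an in-house pipeline from TruSeq libraries; the labels list hg19, CASAVA 1.82 and TopHat2. The annotation and the read numbers are not given in the sources used here, and precision was taken from the spread between samples. Methods and labels give the dose as 1 μM, and some figure legends give a lower one.

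Members and lists were chosen with earlier results of these data known. FPKM were tested as log2(FPKM + 1) with limma 3.58.1 (R 4.3.3): 1 mean per group, all 10 samples, eBayes with trend, 6 residual degrees of freedom, and Benjamini-Hochberg adjustment over the 16071 genes whose mean passed 0.1 FPKM in any group. The fit was tested on simulated differences between the lines in DMSO. It recovered 11% of 2-fold, 65% of 4-fold and 82.5% of 8-fold changes. Of its calls, 8.33%, 3.7% and 5.71% were false. The changed genes all had a mean above 1 FPKM and were far fewer than the genes called between the lines here. The rates therefore do not cover members at lower levels. Python 3.11.15 gave sums, ratios and sequence searches. Stem-loops, GC content and shared 50-base windows came from GENCODE transcripts, promoters from RefSeq. Named were up to 4 members per histone type by mean level, up to 5 rises and 5 falls per comparison (or the 3 smallest p), list members and copies; others named were chosen after their values were seen. Alternatives were other pseudocounts, filters, scalings, priors and samples, a replicate block, and an adjustment for GC content and length (polynomials of degree 3) added after seeing the data.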

Additional observations from a re-analysis of the deposited data

How the results depend on the processing

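The calls between the lines were recomputed under 20 other settings. Of the 34 members called in DMSO, 26 to 34 stayed called, and of the 41 called in PKC412, 32 to 41. Leaving out 1 sample at a time gave 25 to 33 members lower and 2 to 3 higher in MDA-MB-468 in DMSO, and 34 to 37 lower and 3 to 5 higher in PKC412. No member was called for PKC412 in either line, or for the difference of the responses, with any sample left out. With a mean FPKM above 1 required, 1 member was higher in MDA-MB-468 in DMSO and 1 in PKC412, since fewer members were tested (40). With FPKM adjusted for GC content and length, 1 member was called higher for PKC412 in MDA-MB-468. HIST1H1B differed between the lines in DMSO by 0.0503 with a pseudocount of 0.1 and by 0.16 with 0.01; with 1 sample left out it ranged from -0.51 to 0.36, and HIST1H1E from -0.57 to 0.18. For these the cause was not tested. The members' median in DMSO was -1.54 and -1.94 with these pseudocounts. Median-ratio rescaling moved the median of all genes from 0.19 to 0.05 in PKC412 between the lines, and that of the members to -0.85; over all genes it gave 3711 higher and 3117 lower in DMSO against 4266 and 2556, 4825 and 4304 in PKC412 against 5944 and 3477, and 73 and 99 for PKC412 in MDA-MB-468 against 111 and 91. Equal FPKM sums moved the median of all genes from 0.11 to 0.24 for PKC412 in MDA-MB-468. Same-numbered samples of the agents did not deviate together (r of -0.69 and -0.61 in MDA-MB-468, 0.12 and -0.63 in ZR75-1, across 7685 genes). Across the lines r was 0.85 for both numbers in DMSO, where 2 samples per group give 1 value, and -0.25, 0.54 and -0.01 in PKC412. The numbers were not taken as pairs, since not every pair correlated; with the replicate block 0 members were called for PKC412, and 31 lower and 2 higher in DMSO and 36 and 3 in PKC412 between the lines. A fit on the groups of the contrast alone could not be made for the difference of the responses.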

Other observations

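Beside the clustered genes, 2 genes linked to histones stood out after their values were seen. LSM10, a protein of the U7 particle that cuts histone pre-mRNA at the 3′ end, was at 71.2 and 56.8 FPKM in DMSO and 155, 169.8 and 112 in PKC412 in ZR75-1. All treated samples were above both controls, and the response was 1.16 (SE 0.21, limma adjusted p = 0.0508). In MDA-MB-468 the values were 113 and 108 in DMSO and 74.8, 103 and 83.8 in PKC412, a response of -0.35 (adjusted p = 0.363), and the difference of the responses was -1.51 (adjusted p = 0.118). H2AFJ, a replication-independent H2A gene, was at 162 and 109.8 FPKM in DMSO and 104, 134 and 66.2 in PKC412 in ZR75-1, from highest to lowest the same order of samples as HIST2H2AA3. It was at 17.8 to 29.1 FPKM in MDA-MB-468.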
